A study of Mus musculus with 8 samples.

Results

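The genes described here are 7 cell surface and monocyte genes, Ly6a, Ly6c1, Ly6c2, Ly6e, Ly6i, Plac8 and Cd14, which were taken from the 49315 genes of the count table by their Ensembl identifiers and their GENCODE M21 symbols. Each symbol matched 1 row, and all 7 genes passed the filter on low counts, as did 13051 genes in all. Bone marrow-derived macrophages (BMDMs), primary macrophages grown from the marrow of C57BL/6 mice in medium with M-CSF, the macrophage growth factor, at 10 ng/ml, were transfected with 25 nM of a gapmeR. A gapmeR is a short antisense oligonucleotide through which RNase H cuts the RNA it pairs with. In 4 libraries it was a negative control gapmeR (replicates 2, 5, 6 and 7), and in the other 4 it was directed against the lncRNA MAARS (replicates 9, 11, 13 and 15). RNA-Seq of ribodepleted total RNA was used to ask which transcripts differed with the gapmeR against MAARS. Both groups were transfected wild-type cells, a single negative control sequence was used, and the age and sex of the mice were not given in the sources used here. The labels do not say whether libraries came from separate mice or cultures, so p-values measure the spread between these libraries, which may be technical.

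Genes of the LY6 family encode small proteins with a fold held together by disulfide bridges, most of which sit on the outer face of the membrane through a glycosylphosphatidylinositol (GPI) anchor. In the mouse, Ly6a encodes Sca-1, the antigen used to isolate haematopoietic stem cells. Ly6c1 and Ly6c2 encode the Ly6C antigen, whose level separates classical from non-classical monocytes. Several of these genes, Ly6a and Ly6e among them, are known to be induced by interferons. CD14 is a GPI-anchored coreceptor that hands lipopolysaccharide (LPS) to TLR4, and Plac8 encodes a small cysteine-rich protein that is abundant in classical monocytes and granulocytes.

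Of these genes, 6 were lower with MAARS gapmeR and 1, Cd14, was higher. Ly6a fell 16.9-fold, Ly6i 8.98-fold, Plac8 4.73-fold, Ly6e 4.69-fold, Ly6c1 3.96-fold and Ly6c2 3.19-fold, whereas Cd14 rose 1.67-fold. Each had an adjusted p under 0.05 by edgeR's quasi-likelihood test. Changes were common in these cells: 24.0% of the 13051 genes tested were lower and 21.3% were higher, so that a call by itself sets none of the 7 apart. Of all calls 47.0% were higher, and 60.4% with upper-quartile scaling, under which the 7 genes kept their directions. A log2 fold change of -1.5 or below with a call was found in 1.69% of all genes tested. Ly6a, Ly6e and Plac8 stayed below this value under all 16 other settings. Ly6i and Ly6c1 did so as well, on few counts, and Ly6c1 was at -1.51 without control replicate 7. In contrast, Ly6c2 was at -1.19 without control replicate 7 and at -1.49 with 1 surrogate variable. No tally over the 7 genes is read against this share, since Ly6i passed the filter on low counts only through the control libraries. The median log2 fold change over all genes tested was 0.01. The plot of levels by library shows these values for each gene.

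MAARS itself, listed as Gm14461 (chr2:78237547-78302230, plus strand, lincRNA), had 238, 296, 240 and 249 counts in control replicates 2, 5, 6 and 7. It had 163, 161, 159 and 135 counts in MAARS replicates 9, 11, 13 and 15. All MAARS gapmeR libraries were below all control libraries in CPM, the count relative to the normalized size of the library, at 6.82 ± 0.844 CPM against 13.1 ± 1.36 CPM (SD, n = 4), a log2 fold change of -0.95 ± 0.112 (SE, edgeR adjusted p = 5.8e-05). Libraries held 19287279 to 20567123 counts in the control group and 20839671 to 24541205 in the MAARS group, and mitochondrial genes took 0.397% to 0.548% against 0.694% to 0.868% of them. The part of either difference in the results below was not tested.

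**Figure D1:**
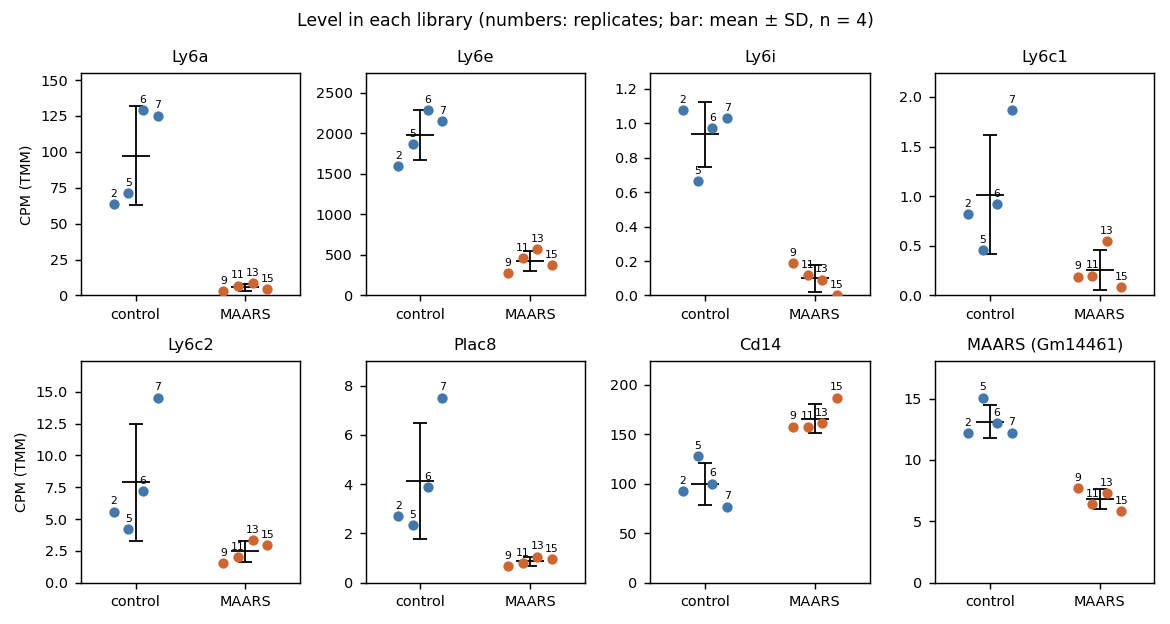
Level of each gene in TMM-normalized CPM (y axis, linear and starting at 0, a separate scale for each gene) in the 4 control and 4 MAARS gapmeR libraries (x axis); points carry the replicate number and black bars show the mean ± SD. Ly6a dropped from between 63.7 and 129 CPM to between 3.03 and 8.50 CPM, the groups overlapped in Ly6c1 alone, and Cd14 was higher in every MAARS gapmeR library.

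Ly6a (ENSMUSG00000075602, chr15:74994877-74998031, minus strand) fell the most. It had 1245, 1400, 2385 and 2550 counts in control replicates 2, 5, 6 and 7, which are 63.7, 71.3, 129 and 125 CPM. In MAARS replicates 9, 11, 13 and 15 it had 64, 174, 185 and 104 counts, or 3.03, 6.92, 8.50 and 4.51 CPM. The groups were far apart, although each of them spread by more than 2-fold between its lowest and highest library. The mean fell from 97.3 ± 34.6 to 5.74 ± 2.44 CPM (SD, n = 4), a log2 fold change of -4.08 ± 0.311 (SE, edgeR adjusted p = 5.27e-06). Ly6a was the gene with the 19th lowest log2 fold change of the 13051 tested.

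Ly6e (ENSMUSG00000022587, chr15:74955051-74959905, plus strand) was the most abundant of the set and 32nd of all genes tested by CPM in the control group. It had 1589, 1868, 2282 and 2149 CPM in control replicates 2, 5, 6 and 7, from 31040, 36665, 42191 and 43754 counts. With MAARS gapmeR it had 280, 458, 567 and 375 CPM in replicates 9, 11, 13 and 15, from 5911, 11504, 12346 and 8662 counts. The groups did not overlap. The mean fell from 1972 ± 308 to 420.0 ± 122 CPM (SD, n = 4), a log2 fold change of -2.23 ± 0.189 (SE, edgeR adjusted p = 7.7e-06).

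Ly6i (ENSMUSG00000022586, chr15:74979534-74983430, minus strand) was close to the limit of detection. It had 21, 13, 18 and 21 counts in control replicates 2, 5, 6 and 7. Only 4, 3, 2 and 0 counts were left in MAARS replicates 9, 11, 13 and 15. It passed the filter on low counts only through the control libraries, and a gene that passes in this way has to be lower in the other group. Its log2 fold change of -3.17 ± 0.472 (SE, edgeR adjusted p = 0.00028) therefore rests on few counts, with levels of 0.662 to 1.08 CPM in the control group and 0 to 0.189 CPM with MAARS gapmeR.

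Both Ly6C genes fell as well. Ly6c2 (ENSMUSG00000022584, chr15:75108158-75111970, minus strand) had 109, 83, 133 and 296 counts in control replicates 2, 5, 6 and 7 (5.58, 4.23, 7.19 and 14.5 CPM). In MAARS replicates 9, 11, 13 and 15 it had 33, 51, 73 and 68 counts (1.56, 2.03, 3.35 and 2.95 CPM). Control replicate 7 was about double the next control library, and even the lowest control library was above every MAARS gapmeR library. The log2 fold change was -1.67 ± 0.370 (SE, edgeR adjusted p = 0.00352), with means of 7.88 ± 4.60 and 2.47 ± 0.823 CPM (SD, n = 4). Without control replicate 7 it was -1.19 (edgeR adjusted p = 0.00443).

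Ly6c1 (ENSMUSG00000079018, chr15:75044018-75048830, minus strand) had 16, 9, 17 and 38 counts in control replicates 2, 5, 6 and 7. Its counts were 4, 5, 12 and 2 in MAARS replicates 9, 11, 13 and 15. It passed the filter on low counts through 3 control libraries and MAARS replicate 13. Its groups overlapped, since MAARS replicate 13 (0.551 CPM) lay above control replicate 5 (0.459 CPM). The means were 1.02 ± 0.600 and 0.257 ± 0.203 CPM (SD, n = 4), and the log2 fold change was -1.99 ± 0.542 (SE, edgeR adjusted p = 0.0113). The size depended on single libraries: it was -1.51 without control replicate 7 (edgeR adjusted p = 0.0371) and -2.64 without MAARS replicate 13 (edgeR adjusted p = 0.00458).

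Plac8 (ENSMUSG00000029322, chr5:100553725-100572245, minus strand) had 53, 46, 72 and 153 counts in control replicates 2, 5, 6 and 7 (2.71, 2.34, 3.89 and 7.51 CPM). In MAARS replicates 9, 11, 13 and 15 it had 14, 20, 23 and 22 counts (0.662, 0.796, 1.06 and 0.953 CPM). Again control replicate 7 was the highest, and the groups did not overlap. The mean fell from 4.12 ± 2.36 to 0.867 ± 0.174 CPM (SD, n = 4), a log2 fold change of -2.24 ± 0.376 (SE, edgeR adjusted p = 0.000614), and of -1.77 without control replicate 7 (edgeR adjusted p = 0.000382).

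Cd14 (ENSMUSG00000051439, chr18:36725067-36726798, minus strand) went the other way. It had 93.0, 128, 100.3 and 77.0 CPM in control replicates 2, 5, 6 and 7, from 1817, 2510, 1855 and 1567 counts. It had 158.0, 158.0, 161 and 187 CPM in MAARS replicates 9, 11, 13 and 15, from 3340, 3971, 3506 and 4321 counts. Every MAARS gapmeR library was above every control library. The mean was 66.9% higher, 99.5 ± 21.3 against 166 ± 14.2 CPM (SD, n = 4), and the log2 fold change was 0.74 ± 0.124 (SE, edgeR adjusted p = 0.000629). It was the gene with the 754th highest log2 fold change of the 13051 tested.

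**Figure D2:**
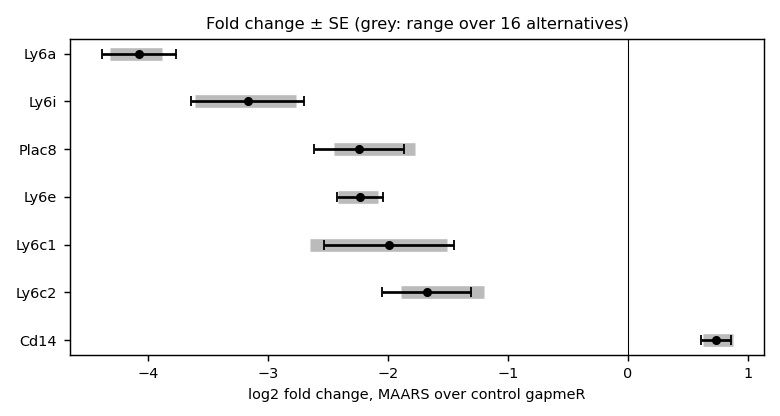
Log2 fold change of each gene, MAARS over control gapmeR (x axis), with genes on the y axis; points and bars are edgeR's estimate ± SE, and grey bands span the 16 other settings tried, which include leaving out each library. Every band of the 6 lower genes stays below 0, a side that the filter on low counts fixed in advance for Ly6i. The band of Ly6c1 runs from -2.64 to -1.51, and that of Cd14 runs from 0.63 to 0.88.

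Counted without a model, Ly6a, Ly6e, Ly6c2 and Plac8 had all 4 MAARS gapmeR libraries below all 4 control libraries, as had 22.8% of the genes tested. Ly6i is left out here, since it passed the filter only through the control libraries, which fixed its separation in advance. Cd14 alone had all of them above, as had 19.3% of the genes tested.

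Per kilobase of exon, which allows levels to be compared between genes, the order in the control group was Ly6e (521 ± 81.4 CPM per kb), Ly6a (80.8 ± 28.7), Cd14 (57.5 ± 12.3), Ly6c2 (2.88 ± 1.68), Plac8 (2.59 ± 1.48), Ly6i (0.809 ± 0.162) and Ly6c1 (0.606 ± 0.358). The ranges of Ly6a and Cd14 overlapped in this order, as did those of Ly6c2 with Plac8 and Ly6i with Ly6c1. Within libraries, Ly6a was above Cd14 in 2 of 4 control libraries and Ly6i above Ly6c1 in 3 of 4, whereas Ly6c2 was above Plac8 in 4 of 4. In the MAARS gapmeR group Cd14 (95.9 ± 8.20 CPM per kb) stood well above Ly6a (4.76 ± 2.03) and next to Ly6e (111 ± 32.3). Cd14 lay within the range of Ly6e there, between 73.9 and 149.9 CPM per kb. Levels of Ly6c2 (0.903 ± 0.300), Plac8 (0.545 ± 0.109), Ly6c1 (0.153 ± 0.121) and Ly6i (0.0866 ± 0.0677) followed, all values as mean ± SD with n = 4. In this group the ranges of Ly6c2 and Plac8 overlapped, as did those of Ly6c1 and Ly6i, with Ly6c2 above Plac8 in 4 of 4 libraries. The exon length of Ly6c2 includes a transcript with a retained intron, which lowers its level on this scale. Each length joins the exons of all transcripts of a gene, with 3784 bases in Ly6e and 1732 in Cd14. The place of Ly6e next to Cd14 depends on these lengths as well.

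Whether the genes changed to the same extent was examined through their ratios. The ratio of 2 genes within each library, as the difference of log2(CPM + 0.5), was compared between groups for all 21 pairs by a two-sided exact permutation test of 4 against 4 libraries. The smallest p that this design allows is 0.0286, and 13 pairs reached it. Each had a Benjamini-Hochberg adjusted p of 0.0462 over the 21 pairs, which is below 0.05 only because 13 pairs tie. The tied pairs include some that are not read here and some whose p was fixed in advance. The adjusted p of the remaining pairs leans on these, so it is not read as a call by itself. Of the 13 pairs, 6 hold Ly6i or Ly6c1, which had 0.551 CPM or less in every MAARS gapmeR library, so that their ratios depend on the pseudocount and are not read here. The difference for Ly6e to Ly6i was -1.01 at a pseudocount of 0.5 and 0.19 at 0.1 (adjusted p = 0.75 by the exact permutation test), and that for Ly6c1 to Ly6e was 1.30 and 0.61 (adjusted p = 0.263 at 0.1). The other 7 pairs include those of Ly6a with Ly6e, Ly6c2 and Plac8, in each of which Ly6a fell relative to the other gene. The rest are those of Cd14 with Ly6a, Ly6e, Ly6c2 and Plac8, in which Cd14 rose relative to the other gene. Cd14 was higher, and each of its partners here lower, in every MAARS gapmeR library than in any control library. A ratio with Cd14 therefore had to separate the groups, so its p was fixed in advance and tests nothing further. The ratio of Ly6a to Ly6e went from -4.39 ± 0.318 to -6.12 ± 0.181 on the log2 scale (SD, n = 4), a difference of -1.73, and the ratio of Ly6a to Cd14 changed by -4.75. Among the lower genes other than Ly6i and Ly6c1, no pair without Ly6a was called. The difference was 0.87 for Ly6c2 to Ly6e and -0.62 for Ly6e to Plac8 (exact permutation adjusted p = 0.1125 for each). The ratio of Ly6c2 to Plac8 was 0.84 ± 0.088 in the control group and 1.09 ± 0.229 with MAARS gapmeR (exact permutation p = 0.114, adjusted p = 0.133). Its difference depended on the pseudocount, at 0.24 with 0.5, 0.46 with 0.1 (adjusted p = 0.05) and -0.036 with 2. At a pseudocount of 0.1, 12 pairs had the smallest p, among them Ly6c2 to Plac8 and the 7 pairs above, and it adjusts to 0.05, which is not below the threshold.

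Within the groups the genes ordered the libraries in different ways, which is given as a description. By CPM, Ly6a and Ly6e shared one order in both groups. Control replicate 6 was highest, followed by 7, 5 and 2, and MAARS replicate 13 was highest, followed by 11, 15 and 9. This order was not theirs alone. The summed interferon-inducible reference list, described below, had it too, from 6623 to 4576 CPM in the control group and from 1301 to 521 CPM with MAARS gapmeR. Ly6c1, Ly6c2 and Plac8 shared another in the control group, with 7 highest followed by 6, 2 and 5. Ly6c2 and Plac8 also shared the order in the MAARS gapmeR group, with 13 followed by 15, 11 and 9. Cd14 was lowest in control replicate 7, where these 3 genes were highest.

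**Figure D3:**
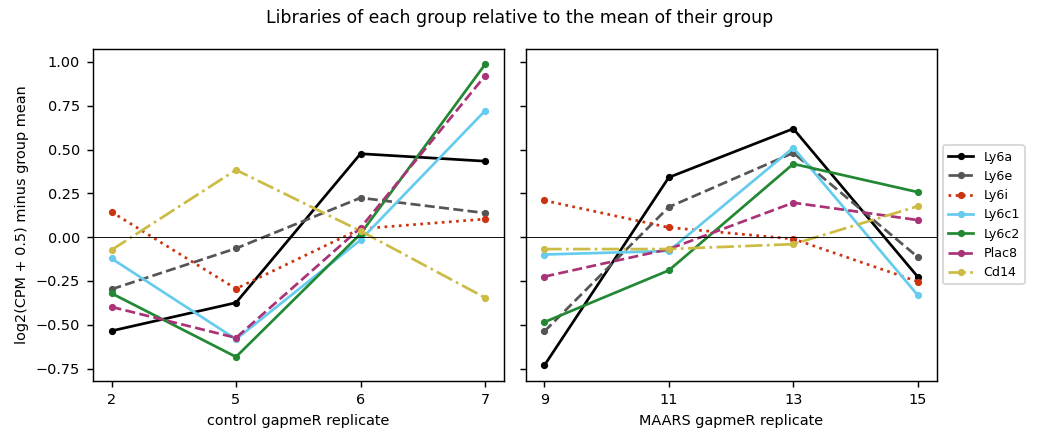
Level of each gene in each library as log2(CPM + 0.5) minus the mean of its group (y axis) for the replicates of each group (x axis); lines only join the points of a gene, since replicates have no order. Ly6c1, Ly6c2 and Plac8 peak in control replicate 7, whereas Ly6a and Ly6e were highest in control replicate 6, and all 5 were highest in MAARS replicate 13.

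Control replicate 7 also held the most transcripts of neutrophil marker genes. Their summed level was 301 CPM there against 102 to 181 CPM in the other control libraries and 106 to 169 CPM with MAARS gapmeR. By edgeR, 0 of the 8 neutrophil markers tested were called in either direction, and Ly6g, the defining LY6 antigen of neutrophils, had 19 counts over all 8 libraries. The summed level of the stromal markers was also highest of the control group in replicate 7, at 1062 CPM against 465 to 761 CPM in the other control libraries and 730 to 1251 CPM with MAARS gapmeR (0 of 7 tested were called by edgeR). The classical monocyte list, described below, summed to 1622 CPM in control replicate 7 and to 1023 to 1489 CPM in the other control libraries. With MAARS gapmeR it summed to 1670 to 2006 CPM, above every control library, whereas Ly6c2 and Plac8 were lower there. The part of such cells in the levels of control replicate 7 was not tested. Fewer cells of a type and less RNA per cell cannot be told apart in such bulk samples. All 6 lower genes remained lower without control replicate 7, as given above for 3 of them. The log2 fold change was then -3.93 for Ly6a and -2.19 for Ly6e (edgeR adjusted p = 2.26e-05 and 3.12e-05). That of Ly6i was -3.12 (edgeR adjusted p = 0.00101), with a direction that the filter on low counts fixed in advance. Cd14 was then higher by 0.63 (edgeR adjusted p = 0.000935).

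Ly6a marks stem and progenitor cells and some endothelial cells, so markers of both were examined. The summed level of 8 stem and progenitor markers was 10.7 to 13.8 CPM in the control group and 4.49 to 7.20 CPM with MAARS gapmeR. Of the 3 that were tested, Cd34 (log2 fold change -2.16 ± 0.214 SE, edgeR adjusted p = 1.76e-05) and Procr (-0.83 ± 0.156, edgeR adjusted p = 0.00123) were lower and Kit was not called, and Flt3 and Hlf had 13 and 12 counts in all. The endothelial markers summed to 17.5 to 22.7 and 8.87 to 9.98 CPM. Kdr, which encodes VEGFR2, was 1 of 3 tested that was lower (-1.54 ± 0.098 SE, edgeR adjusted p = 4.19e-06), while Tek and Cldn5 were close to 0 with 8 and 3 counts. The part of such cells in the fall of Ly6a was not tested. Lymphoid markers were at or under 0.540 CPM in sum in every library, with Cd3g and Gzma at 0 counts throughout, and dendritic cell markers ranged from 1.23 to 2.87 CPM and from 1.52 to 2.08 CPM, with 0 of 1 tested called. The 8 macrophage markers summed to 14227 to 17412 CPM in the control group and 17152 to 20373 CPM with MAARS gapmeR. Their sum was thus high in all 8 libraries, but a sum can rest on few abundant transcripts and does not give the level of each. Of the 8, 3 were lower and 4 were higher, beside 24.0% and 21.3% of all genes tested. Fcgr1, which encodes the high-affinity IgG receptor CD64, fell the most (-2.09 ± 0.174 SE, edgeR adjusted p = 7.12e-06).

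The 5 LY6 genes lie together on chromosome 15 within 156.92 kb, in the order Ly6e, Ly6i, Ly6a, Ly6c1 and Ly6c2. Of 47 other genes of the table within 500 kb of them, 26 had no count and 4 were tested. Of these, 1 was lower and none was higher, beside 24.0% and 21.3% of all genes tested. The lower gene, Them6, had a log2 fold change of -0.42 ± 0.148 (SE, edgeR adjusted p = 0.0382), with overlapping groups. That call was lost in 7 of the 16 other settings, namely upper-quartile factors and the omission of control replicate 2, 6 or 7 or of MAARS replicate 9, 13 or 15. Jrk (-0.10), Lynx1 (0.29) and I830127L07Rik (-0.71) were not called, and these genes were named after their values were seen. With no filter on low counts 4 neighbours were called lower, namely Them6 and 3 genes of few counts, 2010109I03Rik (54 counts over the 8 libraries), Gm29126 (33 counts) and Gm5960 (19 counts). Gm29126 starts 1.57 kb from the start of Ly6e, and whether the counting used the strand or shared reads between genes is not given in the sources used here.

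**Figure D4:**
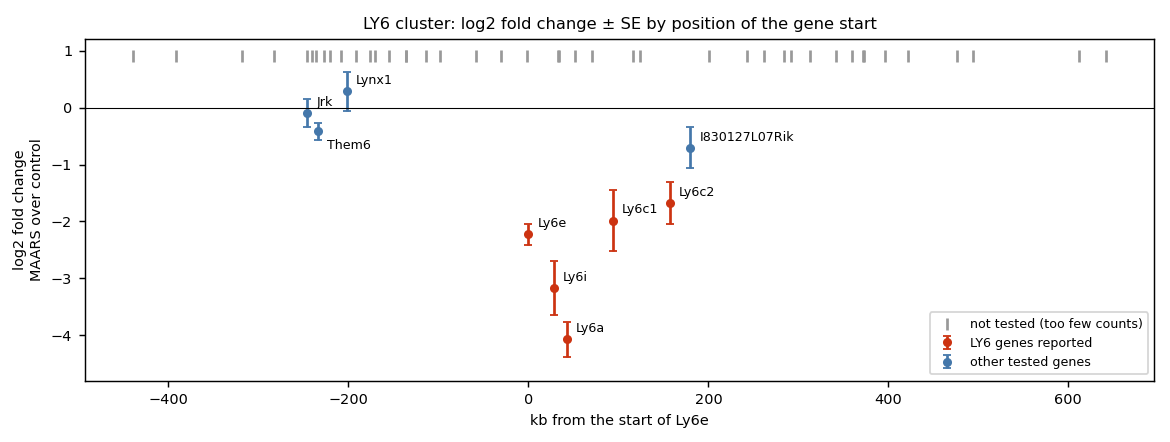
Log2 fold change ± SE, MAARS over control gapmeR (y axis), of the genes tested around the LY6 genes by distance of their start from that of Ly6e in kb (x axis); red points are the 5 LY6 genes, blue points the other 4 genes tested, and grey ticks, drawn at 1 height, genes with too few counts. The LY6 genes lie between -1.67 and -4.08, and the other genes tested lie between -0.71 and 0.29.

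How well the counts tell these genes apart depends on their sequence, so the start of each coding sequence is shown. The first 90 coding bases of the 5 LY6 genes, from the GENCODE M21 transcripts (GRCm38), are given 5′ to 3′ with capitals where a base differs from Ly6c2 at the same place, without gaps.
Ly6c2: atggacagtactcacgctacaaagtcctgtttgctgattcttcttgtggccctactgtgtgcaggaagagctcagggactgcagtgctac
Ly6c1: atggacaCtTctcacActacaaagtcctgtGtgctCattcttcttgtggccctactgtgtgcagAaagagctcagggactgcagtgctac
Ly6a: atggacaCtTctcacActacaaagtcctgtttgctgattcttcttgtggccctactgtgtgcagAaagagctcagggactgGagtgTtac
Ly6i: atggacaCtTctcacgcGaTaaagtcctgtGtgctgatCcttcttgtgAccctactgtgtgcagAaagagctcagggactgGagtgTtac
Ly6e: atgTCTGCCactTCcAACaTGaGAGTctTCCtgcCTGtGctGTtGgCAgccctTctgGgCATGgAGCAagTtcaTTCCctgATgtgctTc
Ly6c1 and Ly6a differed from Ly6c2 at 6 of these bases each, Ly6i at 10 and Ly6e at 47.
Over the whole coding sequence, Ly6c1 and Ly6c2 were 97.7% identical (384 of 393 aligned positions), Ly6a and Ly6i 86.3%, Ly6a and the Ly6C genes 81.6% to 81.8%, and Ly6e and the others 49.8% to 52.7%. The paper's methods give paired reads of 100 nt, and words of this length were compared singly, so that pairs may be less ambiguous than shown here. Single reads could not always be assigned: 10.1% of the 100-base words in Ly6c1 transcripts also occurred in a transcript of another gene (Ly6a or Ly6c2), as did 5.81% of those of Ly6c2 and 1.45% of those of Ly6a. None of the words of Ly6e, Ly6i, Plac8 or Cd14 did. The counts of Ly6c1 are therefore uncertain, all the more as Ly6a and Ly6c2 had several times its counts in each library.

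Promoter sequences from RefSeq (GRCm38.p6, 250 bases before to 50 after an annotated start) matched Ly6c1, Ly6c2 and Plac8, with 6 start sites in all. They are shown for the pair Ly6c1 and Ly6c2, whose coding sequences are nearly the same and which both fell, at the first listed start site of each (minus strand, chr15:75048788-75049087 and chr15:75111922-75112221). Capitals mark the stretches of 12 or more bases that occur in both promoters.
Ly6c1: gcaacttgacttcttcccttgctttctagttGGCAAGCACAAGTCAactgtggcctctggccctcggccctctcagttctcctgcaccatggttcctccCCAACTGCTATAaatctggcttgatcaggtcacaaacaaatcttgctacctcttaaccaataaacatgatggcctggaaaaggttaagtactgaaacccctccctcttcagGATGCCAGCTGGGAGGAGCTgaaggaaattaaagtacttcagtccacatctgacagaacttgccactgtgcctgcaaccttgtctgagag
Ly6c2: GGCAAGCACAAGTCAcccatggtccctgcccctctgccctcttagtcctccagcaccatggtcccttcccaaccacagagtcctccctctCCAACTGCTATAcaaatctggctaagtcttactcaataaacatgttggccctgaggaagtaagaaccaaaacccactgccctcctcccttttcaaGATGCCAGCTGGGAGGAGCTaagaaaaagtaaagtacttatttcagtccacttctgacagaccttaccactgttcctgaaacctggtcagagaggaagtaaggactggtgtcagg
The alignment was 62.3% identical, and the 3 stretches in capitals held 47 bases, the longest with 20. The core of the interferon-stimulated response element (GAAANNGAA) and the gamma-activated site (TTCNNNGAA) were searched on both strands. Neither was found in the 6 promoter windows of these 3 genes, and 8.56% and 8.30% of the 32851 promoters of the table held them. This says only that these letters are not in these windows.

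Other genes that share a family, an anchor, a cell state or a receptor with these genes were examined as lists. Of the rest of the LY6/uPAR family, 32 genes were in the table, 13 had no count and 3 were tested, and none was called. Plaur, the urokinase receptor, had a log2 fold change of -0.15 ± 0.096 (SE, edgeR adjusted p = 0.228), Cd59a, a complement inhibitor, of -0.05 ± 0.079 (edgeR adjusted p = 0.667), and Lynx1 of 0.29 ± 0.349 (edgeR adjusted p = 0.529).

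The 29 genes that build and remodel the GPI anchor, which most LY6 proteins and CD14 carry, had 6 lower and 8 higher. Their median log2 fold change was -0.03. Since 24.0% of all genes tested were lower and 21.3% higher, these counts do not set the list apart. The largest changes called were in Pgap2 (-0.86 ± 0.074 SE, edgeR adjusted p = 8.08e-06), which remodels the lipid of the anchor, and Gpld1 (0.47 ± 0.107, edgeR adjusted p = 0.00435), a phospholipase that cleaves it. Pigf (-0.37) and Gpaa1 (0.36), which act in the transfer of the anchor to proteins or the step before it, came next. Upper-quartile factors called 3 lower in place of 6, and 5 higher in place of 8 were called without control replicate 7 or without MAARS replicate 9.

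Genes of classical, Ly6C-high monocytes did not move one way: of 12 tested, 3 were lower and 5 were higher, with a median of -0.01. The shares over all genes tested were 24.0% and 21.3%, so these counts are not read as a trait of the list. Ms4a4c, a membrane protein of the MS4A family, fell from 333 ± 157 to 7.72 ± 4.02 CPM (log2 fold change -5.43 ± 0.415 SE, edgeR adjusted p = 5.27e-06). F13a1, the A chain of coagulation factor XIII, rose from 3.74 ± 0.740 to 15.8 ± 5.88 CPM (2.07 ± 0.255, edgeR adjusted p = 7.49e-05), and Thbs1, thrombospondin-1, rose from 379 ± 57.0 to 1018 ± 110 CPM (1.42 ± 0.109, edgeR adjusted p = 5.27e-06), each with SD and n = 4. Ccr2, the chemokine receptor of these monocytes, was also lower at -0.49.

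Of 12 genes of non-classical, Ly6C-low monocytes, 5 were lower and 3 were higher, with a median of -0.26. Here too the counts stand beside 24.0% lower and 21.3% higher among all genes tested and are not read as a trait. Ace (-0.94 ± 0.331 SE, edgeR adjusted p = 0.0374), Pou2f2 (-0.93 ± 0.149, edgeR adjusted p = 0.000464) and Treml4 (-0.69 ± 0.200, edgeR adjusted p = 0.0156) fell, and Spn, which encodes CD43, rose (0.88 ± 0.157, edgeR adjusted p = 0.000926). The count of lower genes was 3 without MAARS replicate 11 or 13.

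Cd14 rose while most genes of the LPS receptor list did not. Of its 19 genes, Cd14 left out, 12 were lower and 1 was higher, with a median log2 fold change of -0.34. Among all genes tested 24.0% were lower and 21.3% were higher. The list holds adaptors and related receptors beside the LPS receptor itself. Cd180 (-0.95 ± 0.089 SE, edgeR adjusted p = 1.26e-05) and Ly86 (-0.92 ± 0.092, edgeR adjusted p = 1.87e-05), which form the RP105-MD-1 complex, fell together with the adaptor Myd88 (-0.87 ± 0.071, edgeR adjusted p = 6.7e-06) and the receptor Tlr2 (-0.71 ± 0.088, edgeR adjusted p = 8.03e-05). Tlr4, the signalling receptor itself, fell from 168 ± 8.49 to 128 ± 8.18 CPM (SD, n = 4; -0.39 ± 0.056, edgeR adjusted p = 0.000225). Ly96, which encodes MD-2, had -0.20 ± 0.078 (edgeR adjusted p = 0.0552) and was not called. The higher gene was Syk, a tyrosine kinase (0.50 ± 0.052, edgeR adjusted p = 2.17e-05), and a second was called higher under upper-quartile factors. Tlr4, Ly96, Syk and, above, Ccr2 and Fcgr1 were named after their values were seen.

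All 10 genes of an interferon-inducible reference list were lower, with a median log2 fold change of -3.14. The largest changes were in Ifit3 (-3.44 ± 0.334 SE, edgeR adjusted p = 1.54e-05), Isg15 (-3.44 ± 0.293, edgeR adjusted p = 7.86e-06), Rsad2 (-3.35 ± 0.249, edgeR adjusted p = 5.27e-06) and Mx1 (-3.29 ± 0.284, edgeR adjusted p = 8.27e-06). The list was chosen with the fall of interferon-inducible genes in these libraries already known, so it is not independent evidence of its direction. Ly6a fell by more than any of these 10 genes on the log2 scale, and Ly6e by less than their median.

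**Figure D5:**
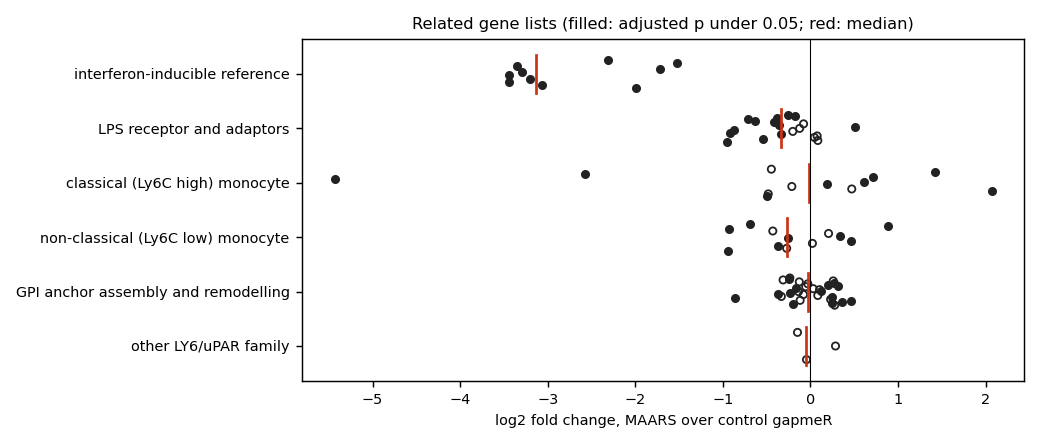
Log2 fold change, MAARS over control gapmeR (x axis), of the genes tested in each list (y axis, points spread vertically only to show them); filled points had an adjusted p under 0.05 by edgeR, open points did not, and red bars mark the median. All 10 interferon-inducible genes lie below -1.5, and 12 of 19 genes of the LPS receptor list are called lower.

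The genes whose log2 CPM followed each gene most closely over the 8 libraries, among 11920 genes of at least 1 CPM on average, are given as a description. The libraries form 2 groups, so that such a correlation mostly follows the difference between groups and says little of the libraries within them. For Ly6a they included H2-T23 (Pearson r = 0.999) and Klrk1, and for Ly6e they were Trim30a, Ube2l6 and Phf11d (r between 0.9995 and 0.9998). For Ly6c2 they were Magohb, Plac8 (r = 0.979) and Ubox5, and for Plac8 they were Zeb1 (r = 0.993), Ubox5 and Pafah1b2. For Cd14 they were Tecr (r = 0.997), Atpif1 and Ufl1. For the scarce transcripts they were Samd10, Nsun6 and Gm33370 (Ly6c1) and Gfpt1, Dnttip2 and Mrpl30 (Ly6i), with r between 0.982 and 0.995.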

How the data were processed

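Gene expression was measured by RNA-Seq of ribodepleted RNA from BMDMs, 4 libraries transfected with control gapmeR and 4 with MAARS gapmeR, grouped by their labels. The authors trimmed the reads (Trimmomatic 0.36), aligned them with STAR 2.5.2b to mm10 with Ensembl release 79 and counted them per gene with featureCounts (Subread 1.5.2), as given in the paper's methods and the submitters' processing notes. The deposited values are raw counts per gene, not normalized; the strand setting and the treatment of reads that map to several places are not given in the sources used here.

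Low counts were removed by filterByExpr (at least 10 counts, and 15 in total), and the rest were scaled with TMM factors and tested with glmQLFit and glmQLFTest (edgeR 4.0.16, R 4.3.3), with Benjamini-Hochberg adjustment over all 13051 genes. CPM are TMM-normalized. Positions, exon lengths and transcripts came from GENCODE M21 (GRCm38), which held 99.3% of the identifiers. Library totals of 19287279 to 24541205 counts set the precision. Libraries of a group differed by more than sampling noise (chi-square per gene of 4.24 or more). The 7 genes and all lists were chosen with earlier results of these data known. Within these, the text names all 7 genes, MAARS, up to 4 called genes per list by absolute log2 fold change, the 3 genes of closest pattern and called genes of the LY6 cluster, and marker lists mainly by range and count. Some genes that this rule names are not reported here.

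The alternatives were RLE or upper-quartile factors, all genes unfiltered, genes with a mean count of 10 or more, DESeq2 1.42.0, limma-voom (limma 3.58.1), a robust prior, 1 surrogate variable (sva 3.50.0), each library left out, and pseudocounts of 0.1 and 2 CPM for the ratios.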

Additional observations from a re-analysis of the deposited data

Results flagged for a closer look

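In 16 groups of 4 libraries (the 7 genes and MAARS in each treatment), 1 library stood apart from the other 3 by Dixon's criterion at the 95% level: Cd14 in MAARS replicate 15, at 187 CPM against 158.0 to 161 CPM in the others, with a gap of 0.893 of the range of its group. Chance alone marks about 1 in 20 such groups. Cd14 remained higher with MAARS gapmeR without this library (log2 fold change 0.68, edgeR adjusted p = 0.00273).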

How the results depend on the processing

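No alternative of 16 changed the direction of any of the 7 genes or took its adjusted p to 0.05 or above. For Ly6i, which passed the filter only through the control libraries, the direction was fixed in advance and is not read as support. The counts of all genes called stayed within 1.5 times. The highest adjusted p was 0.0371, for Ly6c1 without control replicate 7. Upper-quartile factors, which shifted the median log2 fold change by 0.06, called 2379 genes lower and 3622 higher, 60.4% of calls higher, against 3137, 2782 and 47.0% with TMM factors. Pseudocount 0.1 left 0 of 21 pair ratios with an adjusted p under 0.05, against 13 at 0.5 and 18 at 2, since the 12 pairs at the smallest exact p of 0.0286 then adjust to 0.05. Of the pair ratios that were not called, or rest on few counts, 5 changed sign: with pseudocount 0.1, the difference was -0.12 for Ly6c1 to Ly6c2, 0.92 for Ly6c2 to Ly6i, 0.19 for Ly6e to Ly6i and -0.46 for Ly6i to Plac8, and with pseudocount 2 it was -0.036 for Ly6c2 to Plac8. Only Ly6e to Ly6i among them was called at 0.5. With a library left out, ratios were compared as values only, and no test was run. No paired analysis was possible because the groups share no replicate number. Few counts limit Ly6i and Ly6c1, and sequence shared with Ly6a and Ly6c2 limits Ly6c1 further.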
